A study of Homo sapiens with 8 samples.

Results

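Chromosome 4 carried 2096 of the 47470 CTCF peaks listed for control HT1080 cells. They are the rows of the control list that lie on chromosome 4 with a centre outside 54 to 56 Mb (hg19), a segment whose 28 peaks were left out. A peak was counted as kept if any base of it overlapped a peak of CBL0137-treated cells and as lost if none did. HT1080 is a human fibrosarcoma line, and the groups were untreated cells and cells exposed to 3 µM CBL0137 for 6 h, with 2 ChIP libraries (anti-CTCF) and 2 input libraries each, 8 libraries in all. Both groups are the same cell line, and the labels name no difference between them other than the treatment.

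CTCF is a zinc finger protein that binds a long, asymmetric DNA motif. Together with cohesin it halts loop extrusion and so marks the borders of topologically associating domains and the anchors of chromatin loops, where motifs often face each other. CBL0137 is a curaxin, a small molecule that binds DNA without cutting it and changes the shape of the double helix and of nucleosomal DNA. The question of the comparison was which CTCF sites of untreated cells were still occupied after the drug. Chromosome 4 is poor in genes and in GC over most of its length, with a gene-rich end on the short arm.

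The sequences below are examples of kept and lost sites and of sites listed in treated cells only. In each, the capitals are the 12 bases that best matched the core of the CTCF consensus within 400 bp around the peak centre, the lower-case letters are 9 flanking bases on each side, and the coordinates are those of the capitals. Sites outside protein-coding genes are named by the protein-coding gene with the nearest start. The first set holds sites that were kept, chosen because they were among the strongest or weakest kept peaks or lay in the windows with few losses. Not all such sites are printed. All those printed have G as the ninth capital, while kept sites with T there, at chr4:183994887-183994898 and chr4:1124532-1124543, lay in the same windows.
long noncoding RNA gene, nearest start VEGFC, no mismatch, minus strand, chr4:177968686-177968697: acacaccccCCAGCAGAGGGCagtgtgcat
PRDM8, 1 mismatch, plus strand, chr4:81105385-81105396: gcacagcagCCAGAAGAGGGCgccagcacc
intergenic, nearest start LCORL, 1 mismatch, plus strand, chr4:18077587-18077598: gttgctcttCCATTAGGGGGCactagaggg
TENM3 intron, no mismatch, minus strand, chr4:183228488-183228499: ttctaactaCCAGTAGGGGGCcaattagca
TENM3 intron, no mismatch, plus strand, chr4:183399752-183399763: gactctttgCCACTAGAGGGCagtaaaaaa
TACC3 intron, no mismatch, minus strand, chr4:1728150-1728161: ccaggatggCCAGCAGGGGGCgtggtaaac
NSD2 intron, no mismatch, minus strand, chr4:1901133-1901144: ttattaccaCCACTAGGGGGCggaccctga
DDX60, no mismatch, plus strand, chr4:169239597-169239608: ccttccgggCCAGCAGGGGGCccgtgcgcc

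The second set holds sites that were lost, 4 of the 5 strongest lost peaks followed by matches without a mismatch in the windows where most peaks were lost.
CLNK intron, 1 mismatch, plus strand, chr4:10583881-10583892: tggaaacagCCAGCAGGAGGCattggatgc
RUFY3 intron, 1 mismatch, plus strand, chr4:71601839-71601850: cacagtgctCCACTGGGTGGCagagttcag
intergenic, nearest start SULT1E1, 1 mismatch, minus strand, chr4:70747079-70747090: tgaaatgtgCCACTAGAGAGCagcaggata
intergenic, nearest start SPOCK3, 1 mismatch, minus strand, chr4:167515677-167515688: gctgttgtaGCACTAGAGGGCacactaagt
intergenic, nearest start CTSO, no mismatch, plus strand, chr4:157215949-157215960: attggttttCCAGTAGATGGCagcaaaagg
NDNF intron, no mismatch, minus strand, chr4:121971618-121971629: ctacatcatCCACCAGATGGCcatgaaaaa

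The third set holds the 3 strongest peaks that were listed in treated cells only.
ENPP6 intron, 1 mismatch, plus strand, chr4:185018600-185018611: gccgccactCCACCGGGGGGCgctttcctc
intergenic, nearest start NKX6-1, 1 mismatch, plus strand, chr4:85404145-85404156: cctgcccggCCTGCAGAGGGCgtaacaggc
NELFA, no mismatch, minus strand, chr4:2010969-2010980: tcccgagagCCAGCAGAGGGCgccgccatg

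Of the 2096 peaks, 1089 were lost and 1007 were kept, which is a lost share of 52.0% (95% Wilson interval 49.8% to 54.1%). On the other chromosomes 19249 of 45318 peaks were lost, or 42.5% (42.0% to 42.9%), and over the whole list the share was 42.9%. The difference between chromosome 4 and the other chromosomes was 9.48 percentage points (7.29 to 11.7). Each deposited list combines both replicates, so that no value per library and no spread between replicates could be given, and all intervals cover counting error only. Neither were reads or signal tracks analysed here, and the depth of each library is not in the lists.

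Chromosome 4 had the second highest lost share of 23 chromosomes. Chromosome 13 was first, with 52.9% (50.04% to 55.7%), and chromosome X followed, with 50.8% (48.2% to 53.4%), and these intervals overlapped that of chromosome 4. At the other end stood chromosome 19, with 21.1% (19.2% to 23.2%). The 100 kb around the chromosome 4 peaks had a median GC content of 38.8%, the lowest of the 23 chromosomes, and the order of the chromosomes by lost share was close to the reverse of their order by GC content (Spearman's rho −0.95 over 23 chromosomes). The chromosomes share the same 8 libraries, and the value is a description.

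**Figure D1:**
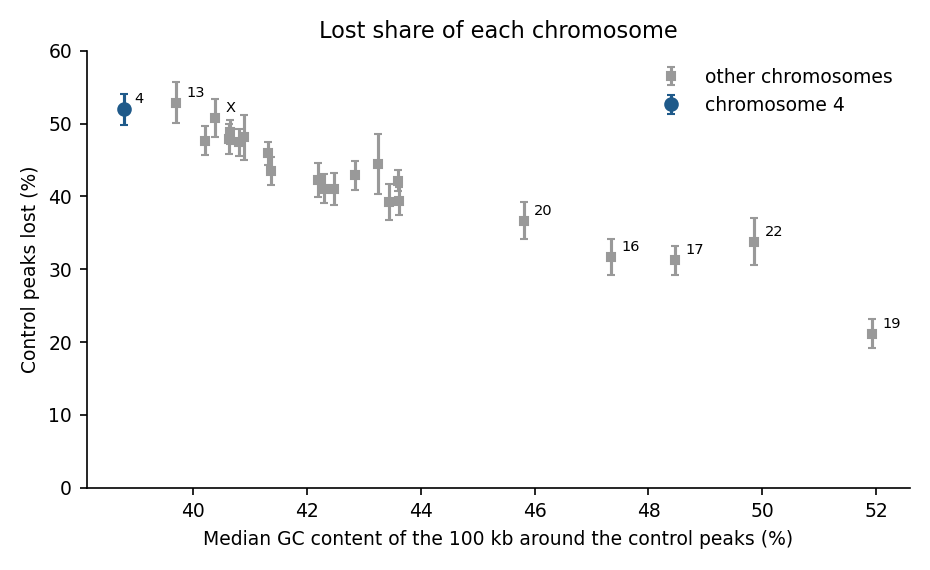
Share of control CTCF peaks lost after CBL0137 (y axis, percent) against the median GC content of the 100 kb around the peaks (x axis, percent) for each of 23 chromosomes, with Wilson 95% intervals. Chromosome 4, at 38.8% GC and 52.0% lost, lies at the upper left, and chromosome 19, at 21.1% lost, at the lower right.

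The strength of a peak in untreated cells went with its fate. Control fold enrichment, the ratio of ChIP over input, had a median of 35.6 for kept peaks (quartiles 28.6 and 44.4) and 23.01 for lost peaks (17.3 and 31.4). A kept peak had the higher control fold enrichment than a lost one in 0.791 of all pairs (0.771 to 0.810), against 0.813 on the other chromosomes. In the weakest decile of the control list, 96.7% of the chromosome 4 peaks were lost, and in the strongest decile 12.4%. The ranges overlapped widely, from 11.02 to 82.2 in kept and from 4.27 to 76.7 in lost peaks. Fate rests on a second list with its own limit, which held 29558 peaks in treated cells beside 47470 in control cells. With the control list shortened by fold enrichment to that length, the probability was 0.683 (0.655 to 0.711). How much of the contrast comes from the limits of the lists was not tested.

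The median control fold enrichment of chromosome 4, 29.4, was close to the 28.7 of the other chromosomes, whereas its lost share was higher in 10 of 10 deciles of fold enrichment. In decile 4 72.2% were lost on chromosome 4 and 54.1% elsewhere, and in decile 7 the shares were 43.2% and 26.0%. With the other chromosomes weighted to the same fold enrichments, the difference was 11.5 points. Weighting to the same fold enrichment and the same tercile of GC content of the surrounding 100 kb, with limits from the chromosome 4 peaks, left 7.24 points. The highest tercile ran from 40.3% to 62.5% GC, so that GC content was matched only coarsely.

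Peak width gave another picture. At equal fold enrichment the mean width of the chromosome 4 peaks differed from that of the other chromosomes by −45.1 bp, the second most negative value of the 23 chromosomes after chromosome X with −94.7 bp. With the other chromosomes weighted to the same control widths, the difference in lost share was 0.51 points (−1.62 to 2.65). Weighted to the same FDR in the control list, it was 1.83 points (−0.305 to 3.97). Chromosome 4 ranked 12th of 23 at equal width and 9th at equal FDR. These alternatives were chosen after the data were seen. Fold enrichment, width and FDR come from the same control libraries, and their part in the lost share was not tested. Among peaks of 150 bp or less, 91.2% were lost on chromosome 4 and 83.7% elsewhere, and among those of 300 to 350 bp the shares were 28.0% and 30.7%. Of the 167 peaks of 400 bp or more only 9, or 5.39% (2.86% to 9.92%), were lost.

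**Figure D2:**
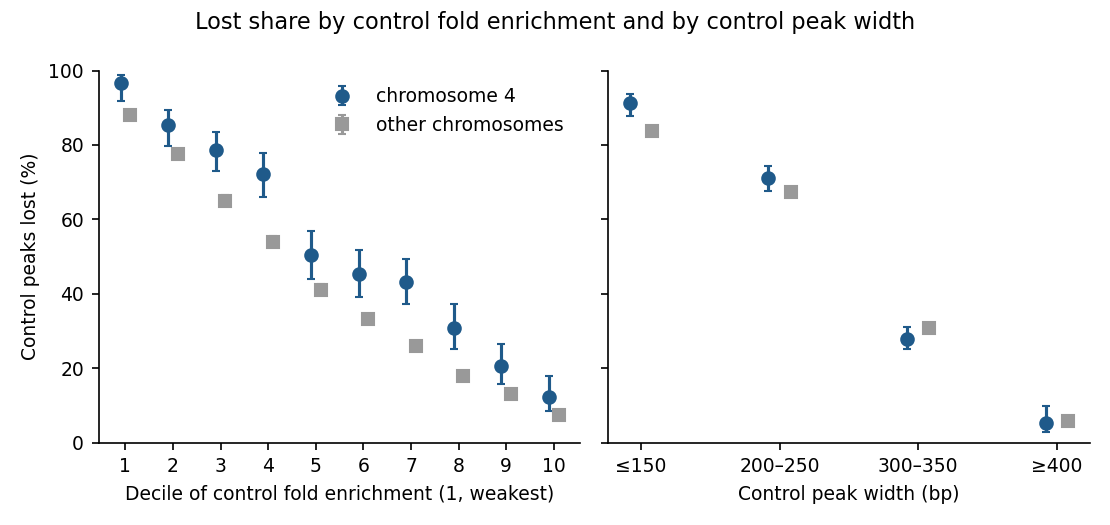
Share of control peaks lost (y axis, percent) by decile of control fold enrichment (left) and by control peak width in bp (right), for chromosome 4 and the other chromosomes, with Wilson 95% intervals. Chromosome 4 lies above the other chromosomes in all 10 deciles of fold enrichment, from 96.7% against 88.1% in the weakest to 12.4% against 7.39% in the strongest, but not in all width classes.

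A second set of deposited lists holds the sites at which the authors' direct comparison of the conditions found a difference. Of the lost chromosome 4 peaks, 894 or 82.1% (79.7% to 84.3%) overlapped a site listed as higher in control cells, beside 78.4% of lost peaks over all chromosomes. Of the kept peaks, 323 or 32.1% did so, beside 30.8% over all chromosomes. On chromosome 4, 1246 sites were listed as higher in control cells and 57 as higher in treated cells, beside 24697 and 2164 over all chromosomes. The lists were made from the same libraries as the peaks and are no independent support for them.

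The DNA under the kept peaks matched the CTCF consensus more often than that under the lost peaks. Allowing 1 mismatch, a match was present in 685 kept peaks, or 68.0% (65.1% to 70.8%), and in 409 lost peaks, or 37.6% (34.7% to 40.5%), and in 1.43% of windows 10 kb away. Matches without a mismatch, such as those in the TENM3 introns printed above, were found for 25.02% of kept and 6.06% of lost peaks. Seen from the sequence, 20.8% of the 318 peaks with a match without a mismatch were lost, and 67.9% of the 1002 peaks with no match. On the other chromosomes these shares were 12.3% and 57.2%.

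The contrast held within terciles of fold enrichment, although peaks with and without a match were not equal inside them. Their median fold enrichments were 19.6 and 17.4 in the lowest tercile and 42.6 and 42.9 in the highest. In the middle tercile their median widths were 300 and 250 bp. Width and FDR were not matched. In the lowest tercile of the chromosome 4 peaks by fold enrichment, 72.5% of peaks with a match and 88.5% of peaks without one were lost. In the middle tercile the shares were 38.5% and 65.0%, and in the highest tercile 15.5% (12.4% to 19.2%) and 36.2% (30.6% to 42.3%). Within each tercile the intervals of the 2 groups did not overlap.

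**Figure D3:**
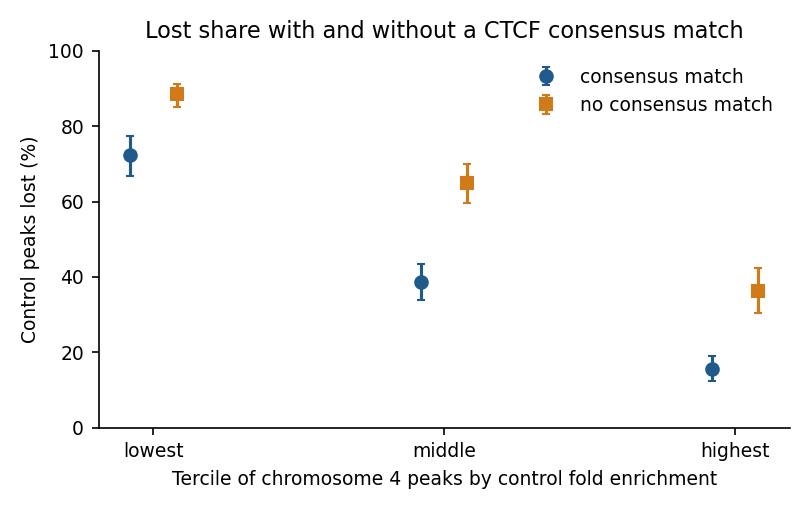
Share of chromosome 4 control peaks lost (y axis, percent) in terciles of control fold enrichment (x axis), for peaks with and without a CTCF consensus match of at most 1 mismatch, with Wilson 95% intervals. Peaks with a match lie lower in each tercile, at 72.5%, 38.5% and 15.5% lost.

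Among matches, the bases in the degenerate places of the consensus differed between fates, which was examined after the printed sequences had been seen. The ninth base of the core may be G or T. Of the 537 peaks with G there, 28.3% (24.7% to 32.3%) were lost, and of the 532 with T (G9T) 46.8% (42.6% to 51.1%). The median control fold enrichments were 33.4 and 31.2. The bases were not compared at equal fold enrichment, width or FDR. At the eighth base, 30.8% (27.1% to 34.9%) of 532 peaks with G and 43.6% (39.6% to 47.8%) of 557 with A (G8A) were lost. At the fourth base, 34.0% (30.4% to 37.8%) of peaks with C and 41.5% (36.9% to 46.3%) with G were lost. At the fifth, the shares were 36.0% (31.7% to 40.6%) with C and 39.6% (35.7% to 43.7%) with T. The other chromosomes had 20.4% and 36.1% at the ninth and 21.6% and 33.1% at the eighth. Their shares were 24.4% and 29.9% at the fourth and 24.3% and 31.4% at the fifth.

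Where a match had a single mismatch, all 12 positions of the core, counted from its 5′ end, were examined, and those named here were chosen after their values were seen. The mismatch lay most often at positions 1 and 12, in 21.9% and 22.2% of the 343 lost and in 21.9% and 25.4% of the 433 kept peaks. At position 11 it lay in 20.1% of the lost and 8.55% of the kept peaks, beside 18.2% and 10.98% on the other chromosomes. At position 5 it lay in 7.29% and 13.6%, beside 9.29% and 14.7%. The direction of the motif made little difference: 36.5% of 554 peaks with a match on the plus strand and 38.3% of 540 on the minus strand were lost, with overlapping intervals (32.6% to 40.6% and 34.3% to 42.5%).

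Along the chromosome, losses were fewest at the short-arm end. In the first 10 Mb, 65 of 196 peaks or 33.2% (27.0% to 40.0%) were lost, with a median GC content of 50.7% in the surrounding 100 kb and 122 protein-coding genes. The highest share of the stretches of 10 Mb was found at 130 to 140 Mb, where 41 of 61 peaks or 67.2% (54.7% to 77.7%) were lost, with a GC content of 35.2% and 7 protein-coding genes. At 180 to 190 Mb, towards the long-arm end, the share was 38.0% (29.1% to 47.8%). The long arm lost 54.3% (51.7% to 56.9%) of 1434 peaks and the short arm 46.8% (43.1% to 50.6%) of 662, a difference of 7.50 points. Without its first 10 Mb, an alternative chosen after seeing the data, the short arm lost 52.6% (48.0% to 57.1%) and the difference was 1.75 points (−3.44 to 6.96).

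**Figure D4:**
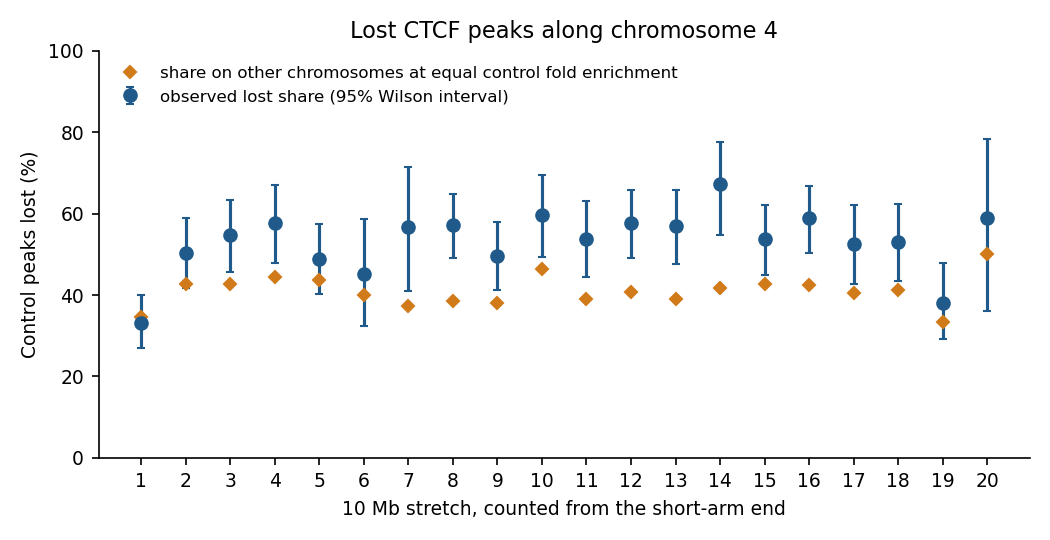
Share of control peaks lost (y axis, percent, with Wilson 95% intervals) in consecutive 10 Mb stretches of chromosome 4 counted from the short-arm end (x axis), and the share found on other chromosomes at the same control fold enrichments. The first stretch, at 33.2%, lies next to its expected 34.7%, and the 14th, at 67.2%, above its expected 41.7%. The 20th stretch is the short remainder of the chromosome and holds 17 peaks.

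The chromosome was then divided into windows of 1 Mb. Of these, 131 held at least 8 control peaks and were ranked, with a median lost share of 52.9% (quartiles 40.6% and 62.5%, range 0 to 90.9%). At least 75% of the peaks were lost in 13 of the 131 windows, beside 106 of 2191 such windows (4.84%) on the other chromosomes. At most 25% were lost in 6 of the 131, beside 255 of 2191 (11.6%). Both numbers depended on the settings, and the windows of the other chromosomes were not recounted at the settings that follow. The first was 23 at a minimum of 5 peaks, 3 at a minimum of 12 and 21 with FDR at most 1e-05 in both lists, and the second was 3 at that FDR. If shared bases had to exceed 50% or 75% of the longer peak, the first was 24 or 66 and the second 4 or 0. With the control list shortened by fold enrichment to the length of the treated list, the numbers were 0 and 35, so that the balance between them turned. In 104 of the 131 windows the share exceeded that of peaks elsewhere at equal fold enrichment. Width and FDR were not matched in this count. For the whole chromosome, the difference was 0.51 points at equal width and 1.83 points at equal FDR.

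Across the 131 windows, Spearman's rho with the lost share was −0.59 for GC content, −0.42 for the number of protein-coding genes and −0.36 for the median control fold enrichment. Neighbouring windows share libraries and base composition, and these values are descriptions. At the level of peaks, 63.5% (59.9% to 67.0%) were lost in the tercile with the lowest GC content over 100 kb and 40.8% (37.2% to 44.5%) in the highest tercile. Peaks of the other chromosomes within the same GC ranges lost 59.8% and 36.1%.

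**Figure D5:**
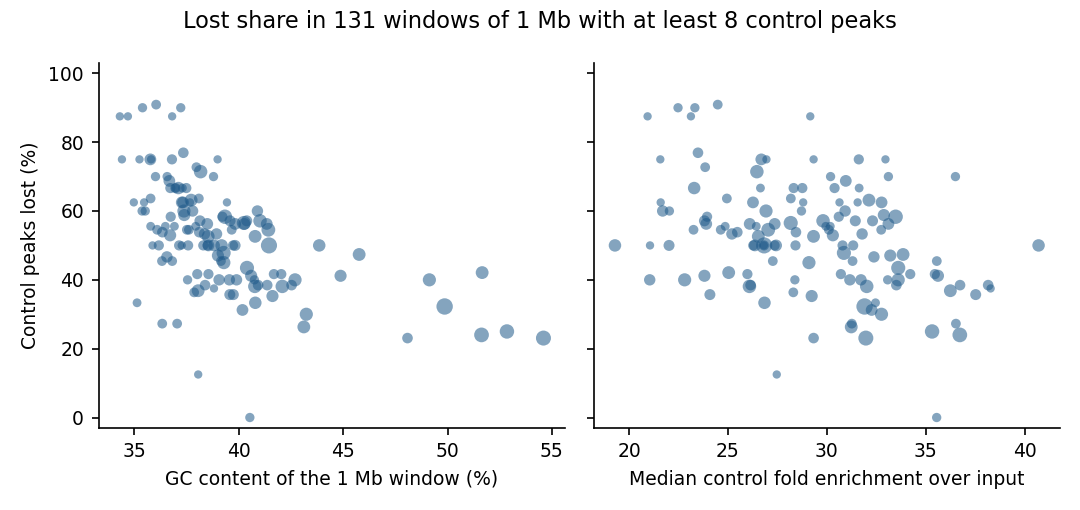
Share of control peaks lost (y axis, percent) in 131 windows of 1 Mb of chromosome 4 with at least 8 control peaks, against the GC content of the window (left, percent) and the median control fold enrichment of its peaks (right). Point area grows with the number of peaks. The point at 0 is the window of TENM3 and DCTD, and the points at the right of the left panel are windows of the short-arm end.

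The windows with the largest losses were picked for this outcome, and 4 of the 5 are described here, without a test. At 157 to 158 Mb, 10 of 11 peaks were lost. The window holds PDGFC, a platelet-derived growth factor, and GLRB, the beta subunit of the glycine receptor. Its strongest peak, at 157396501 to 157396750 between genes, had a fold enrichment of 42.6 and was lost, as was the peak in the untranslated region at the start of PDGFC at 157892051 to 157892250, with 27.0. The single kept peak lay in an intron of PDGFC at 157889651 to 157890000, enriched 33.0-fold, and was one of only 2 peaks of the window with a consensus match.

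At 72 to 73 Mb, 9 of 10 peaks were lost. All 5 peaks within SLC4A4, a sodium bicarbonate cotransporter, were among them, with fold enrichments from 15.3 to 43.6. The others lay around GC, the vitamin D-binding protein, and NPFFR2, a neuropeptide receptor, where the peak at 72806801 to 72807050 was kept with a fold enrichment of 29.9. All 10 peaks, the kept one included, overlapped a site listed as higher in control cells.

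At 138 to 139 Mb, where PCDH18, a protocadherin, is the only protein-coding gene, 9 of 10 peaks were lost although 6 of the 10 had a consensus match. The kept peak, at 138654351 to 138654600, was the strongest of the window, with a fold enrichment of 44.6. It changed from 250 to 200 bp in width. At 32 to 33 Mb, a window without a protein-coding gene, 7 of 8 peaks were lost.

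A window with an equal share, 7 of 8, at 162 to 163 Mb, holds FSTL5, in and around which 6 of 6 peaks were lost.

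The window without a loss lay at 183 to 184 Mb, where all 10 peaks were kept. It holds TENM3, a teneurin that guides neuronal wiring, and DCTD, the deoxycytidylate deaminase of nucleotide synthesis. Of its peaks, 8 had a consensus match, and fold enrichments ranged from 17.6 in an intron of TENM3 to 57.0 between the genes. The GC content of the window was 40.5%. Kept did not mean unaltered: the peak at 183846451 to 183846800 was 350 bp wide in control cells and 100 bp in treated cells, and was listed among the sites higher in control cells. At the rates of the other chromosomes at equal control fold enrichment, 27.5% of the 10 peaks would be lost. Without matching, the share of the other chromosomes was 42.5%. The Wilson interval of 0 of 10 reaches 27.8%.

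At 85 to 86 Mb, around NKX6-1, a homeodomain factor of pancreatic beta cells, CDS1, an enzyme of phospholipid synthesis, and WDFY3, an autophagy scaffold, 7 of 8 peaks were kept. The lost one, at 85391501 to 85391650, 26527 bp from the start of NKX6-1, was 150 bp wide, the narrowest of the 8. The same window also held a peak listed in treated cells only, printed above.

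The other windows with few losses lay at the short-arm end. At 1 to 2 Mb, 20 of 26 peaks were kept, among them all peaks in introns of TACC3, a spindle protein, NSD2, a histone H3 methyltransferase, and FAM53A, and the peak 216 bp from the start of FGFRL1. The 6 lost peaks of this window were 100 to 200 bp wide and the 20 kept ones 200 to 700 bp. At 0 to 1 Mb, 10 of 13 were kept, including all 4 within GAK, a kinase of clathrin uncoating, with fold enrichments from 23.5 to 32.9.

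At 7 to 8 Mb, 19 of 25 were kept. This window holds the strongest peak of the chromosome, at 7044851 to 7045150 near the start of TADA2B, a subunit of the SAGA acetyltransferase complex, with a fold enrichment of 82.2 and 80.4% GC but no consensus match. SORCS2, a sorting receptor of neurons, showed both fates. Upstream, the peaks at 7153651 to 7153850 and 7158551 to 7158900, 40514 and 35539 bp from its start, were lost. The 6 peaks from 7187901 to 7337850 were kept, the 3 peaks from 7688801 to 7705650 were lost, and the next 2, from 7721151 to 7724000, were kept.

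Neighbouring peaks shared their fate about as often as not. Among 349 adjacent pairs less than 10 kb apart, 49.0% (43.8% to 54.2%) had the same fate, and 52.9% (46.6% to 59.1%) of 242 pairs at 200 kb or more. On the other chromosomes the shares were 57.2% and 52.4%. The longest unbroken run of lost peaks held 14 peaks over 2261.6 kb, from 33091501 to 35353100, with no protein-coding gene inside. Their fold enrichments ranged from 12.8 to 35.4, and 6 had a consensus match. Runs of 10 lost peaks lay across INPP4B, USP38 and GAB1 and from CTSO to PDGFC. The longest runs of kept peaks were the 10 at TENM3 and DCTD, 9 across ZFYVE28, RNF4, SH3BP2, ADD1 and NOP14, and 9 across UBE2K, PDS5A, N4BP2 and RHOH. PDS5A is a regulator of cohesin, and the median fold enrichment of the run at its gene was 42.9.

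Position relative to genes was examined next. Within 1 kb of the start of a protein-coding gene, 69 of 149 peaks or 46.3% (38.5% to 54.3%) were lost, against 52.4% (50.2% to 54.6%) of the others. On the other chromosomes the corresponding shares were 29.5% and 43.9%. More than 500 kb from a start, 66.3% (59.2% to 72.7%) of 184 peaks were lost, beside 61.7% (59.2% to 64.1%) of 1494 on the other chromosomes. By annotation the share was 50.8% for 891 peaks in introns, 57.8% for 332 in long noncoding RNA genes, 51.6% for 771 between genes, 47.2% for 36 in coding exons and 43.3% for 60 in untranslated regions. Isolated peaks, with the nearest other peak 200 kb or more away, were lost in 30 of 46 cases, or 65.2% (50.8% to 77.3%). Peaks with one under 10 kb away were lost in 299 of 629, or 47.5%. On the other chromosomes these shares were 55.8% and 37.7%, so that isolated peaks had the higher share there too.

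Of the 5 strongest lost peaks 4 are described, and none of these lay at a promoter by the 1 kb rule. The first was in an intron of CLNK, an adaptor of immune receptor signalling, at 10583701 to 10584050, enriched 76.7-fold over input. It was followed by an intronic peak of RUFY3 at 71601751 to 71602000 with 75.3. A further pair lay between genes, at 70746951 to 70747200 with 64.5, 21213 bp from the start of SULT1E1, the oestrogen sulfotransferase, and at 167515551 to 167515800 with 62.7, 508032 bp from the nearest start, that of SPOCK3. These 4 each had a match with 1 mismatch, printed above, and each overlapped a site listed as higher in control cells.

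The strongest kept peaks after that of TADA2B were at 6682901 to 6683250 with a control fold of 81.2, at 177968501 to 177968850 with 75.8, 254600 bp from the start of VEGFC, a lymphatic growth factor, at the start of PRDM8 with 73.1, and 54102 bp from the start of LCORL with 72.1. The PRDM8 and LCORL peaks were kept and nevertheless listed as higher in control cells. The weakest kept peaks were at DDX60, an interferon-induced helicase, with 11.02, 275372 bp from the start of FAT4 with 11.8 and 1293 bp from the start of TBC1D14 with 12.02. The DDX60 peak lay 302 bp from the gene's start, had a match without a mismatch, and was 200 bp wide in control and 300 bp in treated cells.

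The kept peaks were mostly narrower after treatment, as elsewhere. Of the 1007, 641 or 63.7% were narrower in treated cells, beside 62.4% on the other chromosomes, 255 of equal width and 111 wider, and the median width was 300 bp in control and 250 bp in treated cells. In 84.8% of them the bases shared with the treated peak made up over 50% of the longer one, beside 86.5% on the other chromosomes.

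Peaks were also listed in treated cells only. Of the 1077 treated peaks on chromosome 4, 68 or 6.31% (5.01% to 7.93%) overlapped no control peak, beside 8.07% over all chromosomes. Of the 68, 29 lay in the first 10 Mb, which held 160 of the 1077 treated peaks. At 180 to 190 Mb, the other stretch with few losses, 5 lay among 68 treated peaks, and the window of TENM3 and DCTD held 0 among 10. Their median GC content over 500 bp was 58.5%, against 42.4% for the shared peaks, 20 or 29.4% lay within 1 kb of the start of a protein-coding gene, and 31 or 45.6% overlapped a site listed as higher in treated cells. On the other chromosomes the corresponding values were 59.8% GC, 27.0% and 40.6%. The 3 strongest were in an intron of ENPP6, a choline-specific phosphodiesterase, at 185018451 to 185018750 with a treated fold of 54.9, 13927 bp from the start of NKX6-1 at 85404001 to 85404350 with 50.5, and at the start of NELFA, a subunit of the negative elongation factor, at 2010751 to 2011150 with 38.9. All 3 were listed as higher in treated cells. Their number was 223 if shared bases had to exceed 50% of the longer peak.

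Gene groups of chromosome 4 were counted by the peaks within a gene or 20 kb of it, and are set beside the 52.0% of the chromosome. Growth factor genes lost 35 of 60 peaks (58.3%, 45.7% to 69.9%), with 6 of 10 at SLIT2, the axon guidance ligand, 3 of 6 at BMPR1B and 2 of 6 at EVC. Extracellular matrix and mesenchymal genes lost 25 of 40 (62.5%, 47.0% to 75.8%), with 4 of 8 at PALLD, an actin-binding protein, and all 6 at FSTL5. Genes of NF-kB, interleukins and the interferon response lost 16 of 24 (66.7%, 46.7% to 82.0%), with 4 of 6 at the longer of the 2 gene records of HERC3, 4 of 4 at NFKB1 and 1 of 3 at HERC6. The fold enrichments of the NFKB1 peaks ranged from 16.6 to 32.9. The intervals of all these groups included the share of the chromosome.

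Genes of chromatin, replication and the cell cycle lost 20 of 48 (41.7%, 28.8% to 55.7%). Of the peaks at FBXW7, a ubiquitin ligase subunit, 6 of 9 were lost, at CCNG2, cyclin G2, 3 of 8 and at TACC3 1 of 6. Developmental transcription factors lost 11 of 28 (39.3%, 23.6% to 57.6%), with 4 of 8 at LDB2 and 4 of 6 at RBPJ, the Notch effector. Genes of the short-arm end lost 11 of 29 (37.9%, 22.7% to 55.998%), with 5 of 6 at HTT, which encodes huntingtin, 2 of 6 at MAEA, 1 of 4 at RNF212 and 0 of 4 at GAK. Those of the long-arm end lost 2 of 5.

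Neuronal receptor and adhesion genes lost 27 of 54, with 6 of 12 at KCNIP4, a potassium channel partner, 6 of 8 at CCSER1 and 0 of 5 at TENM3. The GABA-A receptor cluster lost 8 of 12, including all 3 at GABRA2 and 4 of 7 at GABRB1. Protocadherins and FAT cadherins lost 4 of 11 and toll-like receptors 4 of 9.

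The gene clusters of secreted and metabolic proteins held few peaks. CXC chemokines lost 3 of 8, with all 3 at CXCL13 kept, the albumin family 3 of 4, milk, saliva and enamel proteins 4 of 7, and bone and tooth matrix proteins 6 of 8, with all 4 at MEPE lost. Fibrinogen and clotting factors lost 3 of 6, alcohol dehydrogenases 2 of 4 and UDP-glucuronosyltransferases 2 of 3. Genes that lie close together share peaks, and no list stood apart from the chromosome by its interval.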

How the data were processed

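Per the labels, CTCF ChIP-seq of untreated and CBL0137-treated HT1080 cells gave 8 libraries, described as paired-end there and as single-end in the study's reporting. The authors mapped reads to hg19 with Bowtie2 2.2.3, handled them with SAMtools 1.5, and called peaks with PePr on both replicates together. The deposited lists hold, per peak, a fold enrichment (ratio of ChIP over input) and a p-value and FDR (q-value). Of the deposited lists of differential sites only positions were used, and their fold, p-value and FDR were not.

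Fate was any overlap. GC content was taken over 500 bp and 100 kb, and the CTCF core consensus of 12 letters was searched on both strands over 400 bp. Genes were those of GENCODE on GRCh37. Single shares have Wilson intervals, the unweighted difference from the other chromosomes and that between the arms Newcombe intervals, and the probability of the higher fold a Hanley-McNeil interval. Differences at equal fold were weighted over 10 groups, and GC content was matched by terciles of the chromosome 4 peaks only. Intervals of weighted differences carry the counting error of the chromosome 4 share alone. No test was made, since replicates were combined. Named windows, peaks and runs were the extremes by lost share, fold or length, and up to 4 genes per list were those with most peaks. Members and lists were chosen with earlier results of these data known. The tools were pysam 0.24.0, pandas 2.3.3 and numpy 2.4.6 under Python 3.11.15, and the routines were tested on simulated data. Alternatives were other overlap rules, list thresholds, windows and motif settings. A few items among these are not reported here.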

Additional observations from a re-analysis of the deposited data

How the results depend on the processing

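No difference reversed its direction in any alternative, nor did the probability of the higher fold in kept peaks. However, the interval included 0 for the difference from the other chromosomes at equal width and at equal FDR. The same held for the difference between the arms without the first 10 Mb. Single shares and numbers have no direction that could reverse, but the balance between the numbers of windows turned in 1 alternative given below. Of 92 recomputed values, 54 stayed within the interval of the reported one, or, for numbers of windows and arisen peaks, within 1.5 times of it. If the shared bases had to exceed 50% of the longer peak, the lost share of chromosome 4 was 59.3%, 24 windows lost at least 75%, and 223 peaks were arisen. At more than 75% the lost share was 73.3%, the difference from the other chromosomes 5.85 points and 6.81 points at equal fold, the probability of the higher fold in kept peaks 0.763, the share of lost peaks at control-higher sites 75.8%, the numbers of windows with at least 75% and at most 25% lost 66 and 0, and 517 peaks were arisen. With FDR at most 1e-05 in both lists the lost share was 56.5%, the difference 13.1 points and 14.4 at equal fold, the probability 0.734, the difference in consensus matches 26.1 points, between the GC groups 27.4 points and between the arms 13.4 points, the share at control-higher sites 89.3%, the numbers of windows 21 and 3, and arisen peaks 44. With the control list shortened by fold enrichment to the length of the treated list, the lost share was 36.2%, the difference 12.2 points, the probability 0.683, the share at control-higher sites 96.2%, the numbers of windows 0 and 35, and arisen peaks 200. The alternatives added after seeing the data gave 0.51 points (−1.62 to 2.65) at equal width and 1.83 (−0.305 to 3.97) at equal FDR. They gave 7.24 points at equal fold and equal tercile of 100 kb GC content. Between the arms, the difference without the first 10 Mb was 1.75 points (−3.44 to 6.96). The difference in consensus matches was 18.96 points without a mismatch and 14.9 with up to 2, and that between the GC groups 22.7 points with GC content over 100 kb. At least 75% was lost in 23 windows at a minimum of 5 peaks and in 3 at a minimum of 12. Windows of the other chromosomes were not recounted in the alternatives. The cause of these shifts was not tested.

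No paired analysis was possible because the lists used here combine both replicates of a condition, and coverage of single replicates was not used here. For the same reason leaving out a replicate was not run.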
